A study of Mus musculus with 6 samples.

Results

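The Th1 lineage genes are a set of 10 genes named for the T helper 1 cell, the CD4 T cell subset that makes interferon gamma (IFN-γ). The set was given by name and looked up in a table of 56748 mouse genes, of which 52073 had a gene symbol. All 10 were listed, and 8 of them had enough counts to enter a test of 14936 genes. The 6 libraries came from polyA RNA of unsorted WT CD4 T cells of C57BL/6 mice. They had been isolated as naïve cells from spleen and lymph nodes by negative selection, a step that removes other cell types, and kept for 3 days in a culture that favours regulatory T cells (Tregs). That culture held TGF-β, IL-2, antibodies that stimulate CD3 and CD28, and antibodies that block IFN-γ and IL-4, so every group shared a block on the main Th1 cytokine. An antisense oligonucleotide (ASO) is a short synthetic strand that binds a matching RNA, and 3 libraries were from cells given a scrambled ASO and 3 from cells given an ASO against *Pgam*, a gene family of the glycolytic enzyme phosphoglycerate mutase. Values given as triplets follow replicates 1, 2 and 3, with the scrambled-labelled libraries first and the *Pgam*-labelled libraries second. The total counts were 17588755, 18032805 and 16231127, then 16589933, 15860476 and 16803881.

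Th1 cells arise under IL-12, sensed by a receptor of the chains IL-12Rβ1 and IL-12Rβ2, and IFN-γ, sensed by a receptor of the chains IFNGR1 and IFNGR2. These signals raise T-bet, the T-box factor encoded by *Tbx21*, which drives *Ifng* and the chemokine receptor gene *Cxcr3*. TGF-β is known to restrain this program in cells that turn into Tregs.

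The targeted genes are given first. *Pgam1* was counted 10655, 8847 and 11414 times, then 10601, 10299 and 11949 times. The groups overlapped (log2 fold change 0.18, SE 0.13, edgeR adjusted p = 0.331), and 37.1% of the 31-base stretches of *Pgam1* also lie in other genes, chiefly *Pgam1-ps2*. *Pgam2*, the muscle isoform, was counted 93, 125 and 46 times, then 48, 42 and 44 times (log2 fold change -0.84, SE 0.31, edgeR adjusted p = 0.0854). Its adjusted p in edgeR was 0.0144 without scrambled-labelled replicate 3 and 0.0292 with no filter on low counts, in a range of 0.0144 to 0.286 over the alternatives. With all libraries and the filter on low counts neither targeted mRNA passed, so groups are called by their labels, and every direction is that of the *Pgam*-labelled relative to the scrambled-labelled libraries.

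Among the 8 tested Th1 genes, *Ifngr1*, *Eomes* and *Cxcr3* were lower and *Il12rb1* was higher at an adjusted p under 0.05 (edgeR's quasi-likelihood test, with the Benjamini and Hochberg correction over all tested genes). Over all 14936 genes, 1366 (9.15%) were lower and 1199 (8.03%) higher by this rule. In 4 of the 8, the 3 lower genes and *Ifngr2*, every *Pgam*-labelled library lay below every scrambled-labelled one, and in *Ifng* and *Il12rb1* every one lay above. Such separation was found in 19.8% of all tested genes downward and 19.6% upward. The median log2 fold change was -0.19 over the 8 genes and -0.0061 over all tested genes. With 1 library left out at a time, the log2 fold change ran from -1.59 to -1.08 for *Ifngr1*, from -1.03 to -0.68 for *Eomes*, from -0.78 to -0.54 for *Cxcr3* and from 0.42 to 0.68 for *Il12rb1*, so each kept its sign, while the number of calls moved. Without scrambled-labelled replicate 1, or without *Pgam*-labelled replicate 2, 0 of the 8 were lower and 0 higher in edgeR, with 4 lower and 2 higher at an unadjusted p under 0.05 in both cases. Without scrambled-labelled replicate 2, or without *Pgam*-labelled replicate 1, 1 was lower and 0 were higher, with 3 lower at an unadjusted p in each and 1 and 2 higher. Without *Pgam*-labelled replicate 3, 2 were higher. DESeq2 and limma-voom each gave 3 lower and 1 higher with all libraries. The counts over all genes moved as well, to 397 lower and 223 higher without scrambled-labelled replicate 1, 760 and 496 without replicate 2 of that label, 544 and 327 without *Pgam*-labelled replicate 1, and 231 and 160 without *Pgam*-labelled replicate 2. In bulk RNA of unsorted cells, fewer cells that express a gene and less RNA per cell cannot be told apart.

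**Figure D1:**
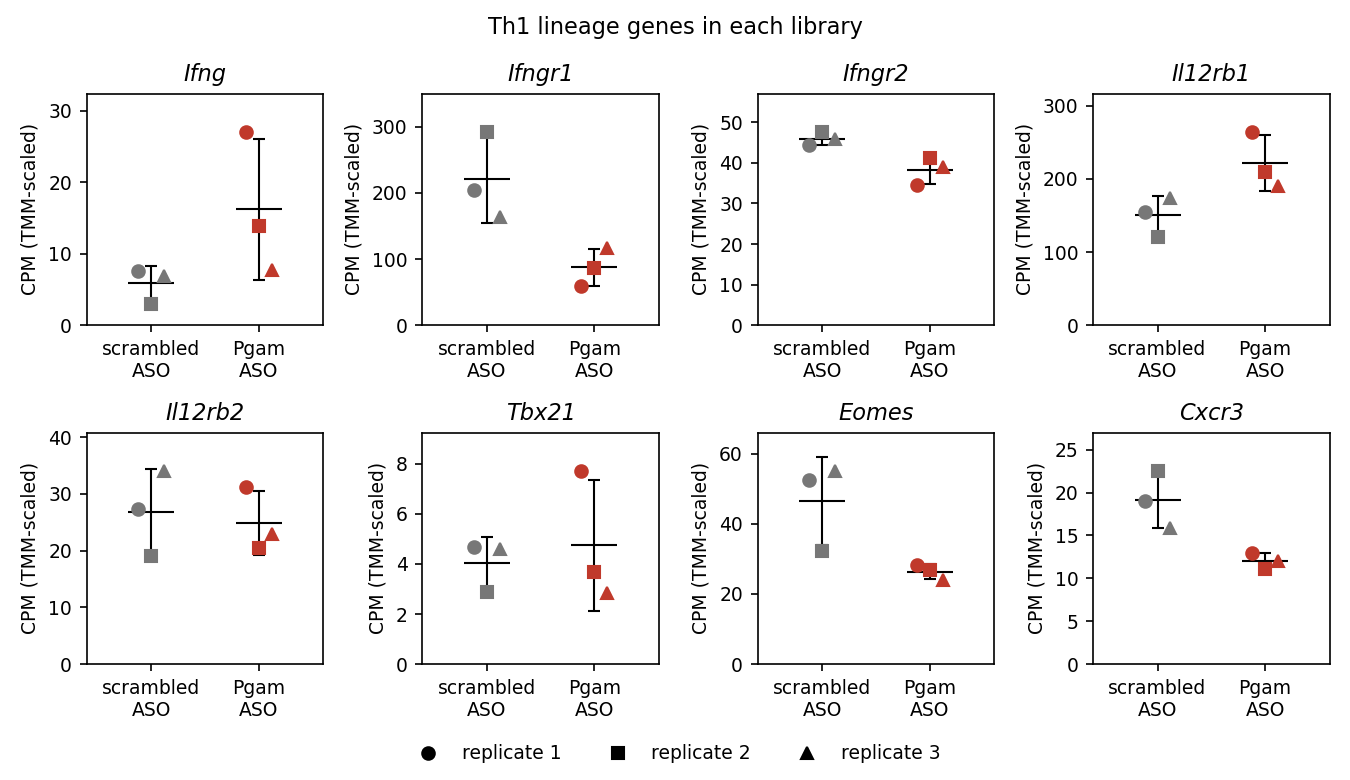
Expression of the 8 tested Th1 lineage genes in each library in CPM, which is the count scaled by library size and TMM factor, with 1 symbol per replicate; lines are means and bars the SD of 3 libraries. *Ifngr1*, *Ifngr2*, *Eomes* and *Cxcr3* lie lower in every *Pgam*-labelled library, *Ifng* and *Il12rb1* lie higher, and *Il12rb2* and *Tbx21* overlap.

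*Ifng* (ENSMUSG00000055170, chromosome 10 from 118441046 to 118445892, plus strand, GRCm38) encodes IFN-γ, the signature Th1 cytokine. Its counts were 134, 56 and 112, then 434, 216 and 130. Each *Pgam*-labelled library was above the highest scrambled-labelled one, but replicate 3 only just, at 7.69 CPM against 7.54 CPM, while replicate 1 reached 27 CPM. The mean was 5.83 ± 2.45 CPM (SD, n = 3), then 16.2 ± 9.84 CPM (SD, n = 3). This difference of 1.47 on the log2 scale (SE 0.52) did not pass the test (edgeR adjusted p = 0.0953). The log2 fold change was 0.89 without *Pgam*-labelled replicate 1 (edgeR adjusted p = 0.181) and 1.82 without *Pgam*-labelled replicate 3 (edgeR adjusted p = 0.0246), in a range of adjusted p from 0.0246 to 0.328 over the alternatives. *Ifng* shares 22.6% of its stretches with *Gm49751*, an overlapping gene on the same strand with 12 counts in all, and the summed counts gave 1.48 (edgeR adjusted p = 0.0951).

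The mRNA for the ligand-binding chain of the IFN-γ receptor was lower with all libraries. *Ifngr1* (ENSMUSG00000020009, chromosome 10 from 19591949 to 19610229) had counts of 3635, 5414 and 2652, then 950, 1353 and 1961. The lowest scrambled-labelled library was above the highest *Pgam*-labelled one. The mean was 220.4 ± 65.5 CPM (SD, n = 3), then 87.3 ± 28.5 CPM (SD, n = 3), and *Ifngr1* fell by 1.34 on the log2 scale (SE 0.30, edgeR adjusted p = 0.0309). In edgeR the adjusted p was 0.0792 and 0.117 without scrambled-labelled replicates 1 and 2, 0.0511 and 0.108 without *Pgam*-labelled replicates 1 and 2, and 0.132 with no filter on low counts, in a range of 0.00312 to 0.132 over the alternatives. *Ifngr2* (ENSMUSG00000022965, chromosome 16 from 91547072 to 91565623), the chain needed to pass the signal on, had counts of 789, 881 and 739, then 556, 641 and 660. Its groups did not overlap either, but the log2 fold change of -0.26 (SE 0.10) did not pass (edgeR adjusted p = 0.0856), nor did it in any alternative, where the adjusted p ran from 0.0668 to 0.27.

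The chains of the IL-12 receptor were read next. *Il12rb1* (ENSMUSG00000000791, chromosome 8 from 70808449 to 70821424), which encodes the chain shared by the receptors for IL-12 and IL-23, had counts of 2753, 2244 and 2811, then 4251, 3275 and 3206. All *Pgam*-labelled libraries were higher, and the mean rose 1.47-fold, from 150.1 ± 26.8 CPM (SD, n = 3) up to 221 ± 38.4 CPM (SD, n = 3). The rise was 0.56 on the log2 scale (SE 0.15, edgeR adjusted p = 0.0363). In edgeR the adjusted p was 0.0953 and 0.0786 without scrambled-labelled replicates 1 and 2, and 0.11 and 0.108 without *Pgam*-labelled replicates 1 and 2, in a range of 8.54e-07 to 0.11 over the alternatives. *Il12rb2* (ENSMUSG00000018341, chromosome 6 from 67291318 to 67376188), the chain that engages STAT4, had counts of 487, 354 and 548, then 503, 320 and 387. These overlapped (log2 fold change -0.11, SE 0.22, edgeR adjusted p = 0.767). The sign turned to 0.10 without scrambled-labelled replicate 3 and to 0.015 without *Pgam*-labelled replicate 2, with edgeR adjusted p-values of 0.763 and 0.977. Over the alternatives that used its own counts, the adjusted p ran from 0.313 to 0.977. *Il12rb2* overlaps *Serbp1* on the opposite strand and shares 38.6% of its stretches with it, so its values are uncertain. The sum of both, in which *Serbp1* holds 80501 counts and *Il12rb2* 2599, gave 0.33 on the log2 scale (edgeR adjusted p = 0.0766). That sum describes *Serbp1*, which alone gave 0.34 (edgeR adjusted p = 0.0645), and says little about *Il12rb2*.

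The set holds a pair of T-box factors. *Tbx21* (ENSMUSG00000001444, chromosome 11 from 97098071 to 97115331) had counts of 83, 53 and 74, then 124, 57 and 48. Of all libraries, *Pgam*-labelled replicate 1 was the highest and replicate 3 of that label the lowest in CPM. The groups overlapped (log2 fold change 0.23, SE 0.37, edgeR adjusted p = 0.694), and the sign turned without *Pgam*-labelled replicate 1, to -0.31 (edgeR adjusted p = 0.565, in a range of 0.331 to 0.972 over the alternatives). *Eomes* (ENSMUSG00000032446, chromosome 9 from 118478212 to 118486132) encodes eomesodermin, a T-box factor best known from cytotoxic and memory T cells. Its counts were 933, 594 and 888, then 454, 419 and 408. The lowest scrambled-labelled library, replicate 2 at 32.1 CPM, lay above the highest *Pgam*-labelled one at 28.2 CPM. *Eomes* fell by 0.82 on the log2 scale (SE 0.19, edgeR adjusted p = 0.0214), from a mean of 46.5 ± 12.6 CPM (SD, n = 3) down to 26.4 ± 2.07 CPM (SD, n = 3). In edgeR the adjusted p was 0.0766 without scrambled-labelled replicate 1, and 0.053 and 0.0893 without *Pgam*-labelled replicates 1 and 2, in a range of 5.46e-09 to 0.0893 over the alternatives. The antisense gene *Gm33460* overlaps *Eomes* and had 4 to 20 counts per library.

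*Cxcr3* (ENSMUSG00000050232, chromosome X from 101731535 to 101734269), a T-bet target, encodes a receptor that guides Th1 cells to inflamed tissue. Its counts were 337, 416 and 256, then 208, 173 and 203, with no overlap in CPM. It fell by 0.67 on the log2 scale (SE 0.15, edgeR adjusted p = 0.0199), from 19.1 ± 3.31 CPM (SD, n = 3) down to 12 ± 0.909 CPM (SD, n = 3). In edgeR the adjusted p was 0.0736 and 0.0559 without scrambled-labelled replicates 1 and 2 and 0.105 without *Pgam*-labelled replicate 2, in a range of 0.000866 to 0.105 over the alternatives.

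The remaining pair had too few counts for the test. *Hlx* (ENSMUSG00000039377, chromosome 1 from 184727140 to 184732619), a homeobox factor that acts with T-bet, had 1, 2 and 2 counts, then 2, 0 and 5. *Twist1* (ENSMUSG00000035799, chromosome 12 from 33957671 to 33959829), a factor known from repeatedly stimulated Th1 cells, had 0, 2 and 7 counts, then 5, 0 and 0. A floor of 3 counts equals 0.162 to 0.192 CPM in these libraries and covers counting error only. No difference in either gene was detectable at this depth.

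To compare levels between genes, CPM was divided by the mean length of a gene's protein-coding transcripts in kb. In the scrambled-labelled libraries, *Ifngr1* at 104 ± 31 CPM per kb (SD, n = 3) and *Il12rb1* at 71 ± 12.7 CPM per kb had the highest levels and overlapped. They were followed by *Eomes* (17.3 ± 4.67 CPM per kb), *Ifngr2* (12.4 ± 0.431 CPM per kb), *Cxcr3* (11 ± 1.91 CPM per kb) and *Il12rb2* (9.58 ± 2.66 CPM per kb), each of which overlapped its neighbour. *Ifng* (4.83 ± 2.03 CPM per kb) and *Tbx21* (1.62 ± 0.41 CPM per kb) were lowest and separate. In the *Pgam*-labelled libraries the means at the top stood in the opposite order, with *Il12rb1* at 105 ± 18.2 CPM per kb above *Ifngr1* at 41.3 ± 13.5 CPM per kb and no overlap. The level of *Ifng* there was 13.4 ± 8.14 CPM per kb, and its libraries overlapped those of *Ifngr2*, *Eomes*, *Il12rb2* and *Cxcr3*. *Tbx21* was again lowest of the tested genes, at 1.9 ± 1.05 CPM per kb.

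**Figure D2:**
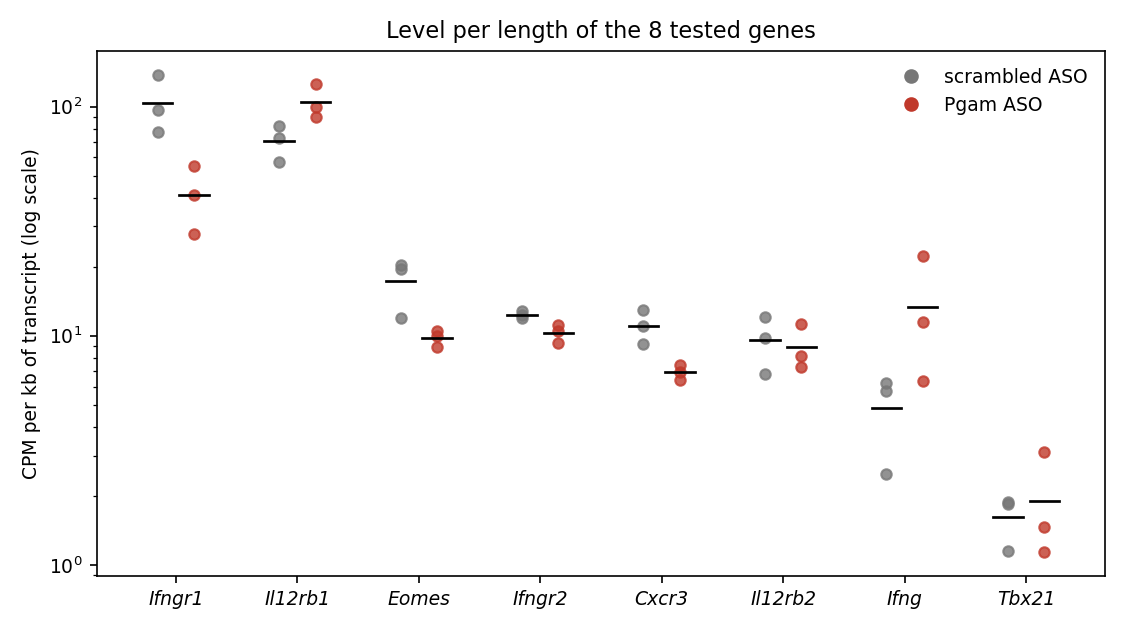
Level of each tested gene in CPM per kb of transcript on a log axis, in each library and by label; points are libraries and lines are means of 3. The means of *Ifngr1* and *Il12rb1* change places between the labels, although in scrambled-labelled replicate 3 *Il12rb1* (82.4 CPM per kb) already lies above *Ifngr1* (77.8 CPM per kb), and *Tbx21* has the lowest mean in both.

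Ratios of counts within a library do not depend on scaling, and 3 were compared. For *Eomes* to *Tbx21* the log2 ratio was 3.48, 3.47 and 3.58, then 1.87, 2.87 and 3.07, a difference of -0.91. Without *Pgam*-labelled replicate 1 the difference was -0.54. For *Il12rb2* to *Il12rb1* the log2 ratio was -2.50, -2.66 and -2.36, then -3.08, -3.35 and -3.05, a difference of -0.65. This ratio is uncertain, since *Il12rb2* shares 38.6% of its stretches with *Serbp1*. For *Ifngr2* to *Ifngr1* it was -2.20, -2.62 and -1.84, then -0.77, -1.08 and -1.57, a difference of 1.08. The groups were separate in each ratio, and a two-sided exact permutation test gave p = 0.1 for each, before and after Benjamini-Hochberg adjustment over the 3. That is the smallest p that 3 libraries against 3 can give.

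**Figure D3:**
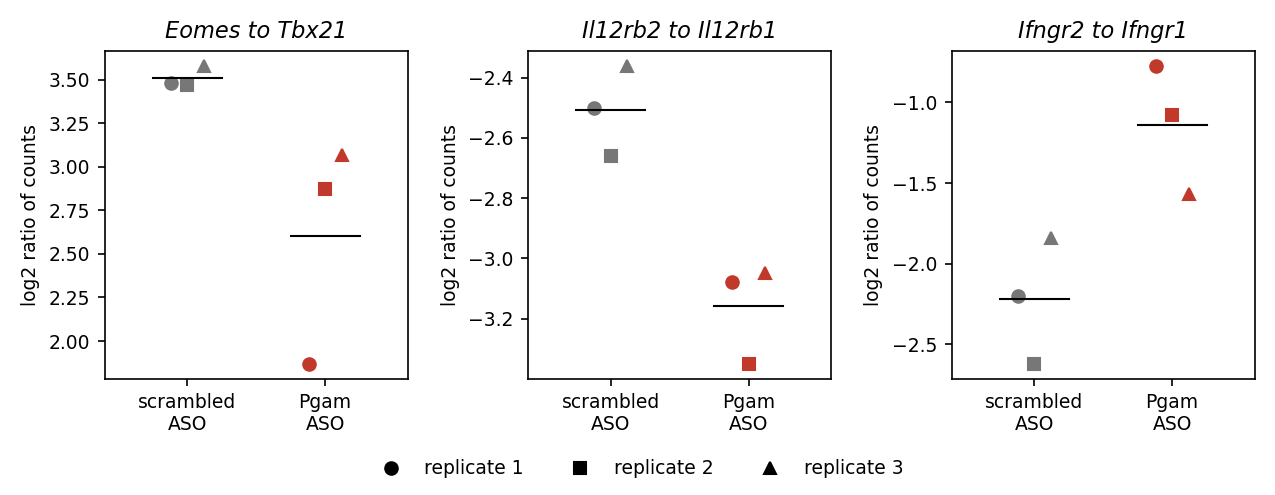
Log2 ratio of counts of paired genes within each library, with a pseudocount of 0.5, 1 symbol per replicate and lines at the means of 3; the axes do not start at 0. The labels are separate in each panel, and *Pgam*-labelled replicate 1 has the lowest ratio of *Eomes* to *Tbx21*, 1.87.

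As a description over the 6 libraries, the genes whose log2 CPM was most like that of *Tbx21* were *Furin* (Pearson r = 0.9863), *Fndc10* (r = 0.9837), *Gm11353* (r = 0.9803), *Wdr73* (r = 0.9792) and *Pdgfb* (r = 0.9753). With 1 library left out at a time, r for *Furin* ran from 0.974 to 0.996. The lowest r was 0.958 for *Fndc10*, 0.94 for *Gm11353*, 0.936 for *Wdr73* and 0.971 for *Pdgfb*. These genes were picked for the highest r among all genes compared over only 6 libraries, and whether chance gives such r was not tested. Among the Th1 genes, r with *Tbx21* ran from -0.563 for *Ifngr1* to 0.774 for *Il12rb2*, and was 0.757 for *Ifng*. All these genes share the same libraries, their depth and the label difference.

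Genes that IFN-γ is known to induce were read next. Of 24 listed, 21 were tested, and their median log2 fold change was -0.29. Of these 9 (42.9%) were lower and 2 (9.52%) higher, beside 9.15% and 8.03% of all tested genes. Guanylate-binding proteins, GTPases of cell-autonomous defence, led the lower genes. *Gbp2* stood at 82.8, 74.8 and 77.6 CPM, then 11.6, 16.2 and 16.4 CPM. The scrambled-labelled level was 5.31-fold higher (log2 fold change -2.41, SE 0.13, edgeR adjusted p = 3.71e-05). *Gbp3* fell by 1.72 on the log2 scale (SE 0.22, edgeR adjusted p = 0.00173) and *Gbp5* by 1.62 (log2 fold change -1.62, SE 0.19, edgeR adjusted p = 0.00179). These 3 passed in every alternative run, where the highest adjusted p-values were 0.00174, 0.0197 and 0.0177. *Gbp7*, which shares 14.7% of its stretches with other genes, was lower as well (log2 fold change -0.93, SE 0.22, edgeR adjusted p = 0.0236). It missed the threshold without scrambled-labelled replicates 1 and 2 (edgeR adjusted p = 0.0832 and 0.0723) and without *Pgam*-labelled replicate 2 (0.0736), in a range of 1.09e-07 to 0.0832 over the alternatives. The higher genes were *Socs1*, a feedback inhibitor of JAK kinases (log2 fold change 0.80, SE 0.16, edgeR adjusted p = 0.0147), and *Psmb8*, an immunoproteasome subunit (log2 fold change 0.43, SE 0.11, edgeR adjusted p = 0.0307). *Socs1* missed the threshold without *Pgam*-labelled replicate 2 (edgeR adjusted p = 0.0674, range 2.86e-13 to 0.0674). *Psmb8* missed it without scrambled-labelled replicate 1 (edgeR adjusted p = 0.1), *Pgam*-labelled replicate 1 (0.0866) or *Pgam*-labelled replicate 2 (0.111), in a range of 0.000225 to 0.111, and shares 13.7% of its stretches, mainly with *Gm20496*, which had 0 counts. In the list as a whole, 5 were lower and 1 higher without scrambled-labelled replicate 1, and 7 were lower and 1 higher without *Pgam*-labelled replicate 1. Without *Pgam*-labelled replicate 2, 4 were lower and 0 higher in edgeR, with 9 and 3 at an unadjusted p under 0.05; with all libraries DESeq2 gave 3 higher and limma-voom 2.

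Promoters were read because *Gbp2*, *Gbp3*, *Gbp5* and *Gbp7* were lower together. Their relative *Gbp6* overlapped between the groups (log2 fold change -0.37, SE 0.24, edgeR adjusted p = 0.29). The RefSeq promoter table (GRCm38.p6, 300 bases each) held 9 of the 10 Th1 genes, all but *Il12rb1*, and 17 of the 24 IFN-γ responsive genes. After the expression values had been seen, 6 motifs were searched on both strands. The GAS motif, TTCNNNGAA, occurs in 8.3% of 32851 promoters, and its narrower forms TTCNNGGAA and TTCCNGGAA, which are GAS matches too, in 4.81% and 1.15%. The interferon-stimulated response element (ISRE), GAAANNGAAA, occurs in 3.44%, the T-box motif AGGTGTGA in 1.28%, and GGTGTGA, which lies within it, in 3.98%. Of the Th1 genes, *Ifng* and *Il12rb2* held a GAS match and *Eomes* an ISRE match. The promoters of *Tbx21*, *Cxcr3*, *Hlx*, *Ifngr1*, *Ifngr2* and *Twist1* held none of the 6, and no Th1 gene held either T-box form. Of the 17 IFN-γ responsive genes, 7 held a GAS match, 10 an ISRE match and 0 a T-box match. Of 20 effector genes associated with T-bet, 14 had a promoter, of which 1, *Nkg7*, held the T-box motif, 3, *Xcl1*, *Gzmk* and *Nkg7*, held GGTGTGA, 4 a GAS match and 1 an ISRE match. ISRE matches occurred in genes that were lower, such as *Gbp2*, and in *Socs1*, which was higher. A match describes letters and is not a site, and no match says only that these letters are not in this window. The promoters of *Ifng* and *Eomes* are shown as those of the Th1 genes with a match whose groups did not overlap, and *Gbp2* and *Gbp5* as genes that were lower in every alternative. They are printed 5′ to 3′ on the plus strand, at chr10:118440796-118441095, chr9:118477939-118478238, chr3:142620413-142620712 and chr3:142496684-142496983, with GAS and ISRE matches in capitals.
Ifng: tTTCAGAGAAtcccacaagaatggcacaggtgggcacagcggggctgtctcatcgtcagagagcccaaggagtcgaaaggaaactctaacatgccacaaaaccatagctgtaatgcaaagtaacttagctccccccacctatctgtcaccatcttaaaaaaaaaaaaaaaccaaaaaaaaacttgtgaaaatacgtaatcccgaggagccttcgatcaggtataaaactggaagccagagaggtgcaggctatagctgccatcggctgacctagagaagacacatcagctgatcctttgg
Eomes: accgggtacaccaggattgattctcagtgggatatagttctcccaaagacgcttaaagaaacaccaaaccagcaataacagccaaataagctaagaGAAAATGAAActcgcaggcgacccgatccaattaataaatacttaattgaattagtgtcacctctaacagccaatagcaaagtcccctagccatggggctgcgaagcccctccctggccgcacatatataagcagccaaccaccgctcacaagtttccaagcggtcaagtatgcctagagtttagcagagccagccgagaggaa
Gbp2: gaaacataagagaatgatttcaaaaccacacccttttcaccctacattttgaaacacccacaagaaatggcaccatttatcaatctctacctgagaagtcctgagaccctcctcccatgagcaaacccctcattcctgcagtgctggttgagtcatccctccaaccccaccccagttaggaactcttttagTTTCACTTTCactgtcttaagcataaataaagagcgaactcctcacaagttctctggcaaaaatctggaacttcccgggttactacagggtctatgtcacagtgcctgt
Gbp5: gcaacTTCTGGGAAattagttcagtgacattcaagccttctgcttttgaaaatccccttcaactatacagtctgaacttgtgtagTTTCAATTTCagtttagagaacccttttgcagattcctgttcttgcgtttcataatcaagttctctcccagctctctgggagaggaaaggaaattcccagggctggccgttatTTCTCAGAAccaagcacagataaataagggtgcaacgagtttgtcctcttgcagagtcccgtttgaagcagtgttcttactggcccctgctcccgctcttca

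Of 20 effector genes associated with T-bet, 17 were tested, and the median log2 fold change was -0.34. Of these 5 (29.4%) were lower and 1 (5.88%) higher, beside 9.15% and 8.03% of all tested genes. *Ctsw*, a cysteine protease of cytotoxic cells, stood at 25.9, 26.2 and 23.4 CPM, then 9.38, 10.5 and 10.7 CPM. It fell by 1.3 on the log2 scale (SE 0.12, edgeR adjusted p = 0.000443) and passed in every alternative run, with a highest adjusted p of 0.0098. The chemokine gene *Ccl5* (log2 fold change -1.16, edgeR adjusted p = 0.0132) and the chemokine receptor gene *Cxcr6* (log2 fold change -1.25, edgeR adjusted p = 0.008) were lower too. Without *Pgam*-labelled replicate 2 they missed the threshold (edgeR adjusted p = 0.0632 and 0.0575, in ranges of 0.00265 to 0.0632 and 3.31e-05 to 0.0575). The chemokine gene *Xcl1* (log2 fold change -2.04, edgeR adjusted p = 0.0237) shares 14.2% of its stretches with *Gm20743*, and the sum of both gave -2.76 (edgeR adjusted p = 0.0174). *Xcl1* missed the threshold without scrambled-labelled replicates 1 and 2 (edgeR adjusted p = 0.0792 and 0.0566) and *Pgam*-labelled replicate 2 (0.111), in a range of 9.55e-11 to 0.111. *Selplg*, a selectin ligand, was lower (log2 fold change -0.50, edgeR adjusted p = 0.0213), but not without scrambled-labelled replicate 1 (0.0801) or *Pgam*-labelled replicates 1 and 2 (0.0683 and 0.11), in a range of 2e-05 to 0.11. *Fasl*, which encodes a ligand that triggers cell death, was higher (log2 fold change 0.68, edgeR adjusted p = 0.0257). It missed the threshold without scrambled-labelled replicates 1 and 2 (edgeR adjusted p = 0.0977 and 0.0633) and *Pgam*-labelled replicates 1 and 2 (0.0907 and 0.108), in a range of 0.000113 to 0.108. Of the list, 3 were lower without scrambled-labelled replicate 1 and 1 without *Pgam*-labelled replicate 2. Without either of these, or without *Pgam*-labelled replicate 1, 0 were higher in edgeR, with 2, 1 and 1 higher at an unadjusted p under 0.05; DESeq2 and limma-voom gave 1 higher with all libraries.

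All 12 signal transducers of the Th1 pathway were tested, with a median log2 fold change of -0.12. Of these 3 (25%) were lower and 1 (8.33%), *Socs1*, was higher, beside 9.15% and 8.03% of all tested genes. *Irf1*, a transcription factor that IFN-γ induces, was lower (log2 fold change -0.74, edgeR adjusted p = 0.0111), but not without scrambled-labelled replicate 1 (0.0548) or *Pgam*-labelled replicate 2 (0.0718), in a range of 5.08e-07 to 0.0718. The other lower genes were *Socs3*, a feedback inhibitor (log2 fold change -0.63, edgeR adjusted p = 0.0375), and *Jak1*, the kinase bound to IFNGR1 (log2 fold change -0.39, edgeR adjusted p = 0.0381). Without scrambled-labelled replicates 1 and 2 and *Pgam*-labelled replicates 1 and 2, the edgeR adjusted p was 0.117, 0.116, 0.114 and 0.141 for *Socs3* (range 6.9e-07 to 0.141) and 0.112, 0.0828, 0.122 and 0.135 for *Jak1* (range 0.00193 to 0.135). *Stat4*, which carries the IL-12 signal, did not pass (log2 fold change -0.31, edgeR adjusted p = 0.0819). The count of lower transducers was 0 in edgeR without scrambled-labelled replicate 1 or *Pgam*-labelled replicate 2, with 5 and 3 lower at an unadjusted p under 0.05, and 3 in DESeq2 and limma-voom with all libraries. It was 1 without scrambled-labelled replicate 2 or *Pgam*-labelled replicate 1, and 5 without scrambled-labelled replicate 3. *Socs1* was the gene whose call was lost without *Pgam*-labelled replicate 2 (edgeR adjusted p = 0.0674, range 2.86e-13 to 0.0674).

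Of 12 transcription factors and cofactors, 3 (25%) were lower and 2 (16.7%) higher, beside 9.15% and 8.03% of all tested genes. The list was not divided by whether a gene favours or opposes the Th1 program. The median over this list was 0.05 on the log2 scale. *Bcl6*, which encodes the transcriptional repressor that directs follicular helper cell formation, fell by 1.97 on the log2 scale (SE 0.42, edgeR adjusted p = 0.022). *Tcf7*, which encodes TCF-1 of naïve and memory T cells, fell by 1.19 (SE 0.27, edgeR adjusted p = 0.0298). *Hopx* was lower as well (log2 fold change -0.57, edgeR adjusted p = 0.0334) and shares 26.2% of its stretches, mainly with *Hopxos*. *Nfil3* (log2 fold change 0.53, edgeR adjusted p = 0.0242) and *Id2* (log2 fold change 0.39, edgeR adjusted p = 0.0349), regulators known from innate lymphocytes, were higher. Every one of these calls was lost in edgeR without some single library. Without scrambled-labelled replicates 1 and 2 and *Pgam*-labelled replicates 1 and 2 the adjusted p was 0.0672, 0.0527, 0.0614 and 0.0949 for *Bcl6* (range 3.67e-12 to 0.0949), 0.098, 0.0565, 0.0586 and 0.0928 for *Nfil3* (range 0.000204 to 0.098), and 0.103, 0.083, 0.118 and 0.131 for *Id2* (range 0.00181 to 0.131). For *Hopx* it was 0.0762, 0.066, 0.0883 and 0.143 without these and 0.0665 without scrambled-labelled replicate 3 (range 0.0122 to 0.143). For *Tcf7* it was 0.0775 without scrambled-labelled replicate 1, 0.0992 and 0.11 without *Pgam*-labelled replicates 1 and 2, and 0.12 with no filter on low counts (range 0.00332 to 0.12). The list had 0 calls in edgeR without scrambled-labelled replicate 1, *Pgam*-labelled replicate 1 or *Pgam*-labelled replicate 2, with 5, 4 and 5 lower and 3 higher in each at an unadjusted p under 0.05. Without scrambled-labelled replicate 2, 1 was lower and 0 higher, with 4 and 4 at an unadjusted p. With all libraries DESeq2 gave 4 lower and 3 higher, and limma-voom 3 and 3. With no filter on low counts edgeR gave 3 lower and 4 higher.

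Of 10 cytokine and receptor chain genes of the IL-12 family, 6 were tested, with a median log2 fold change of -0.29. Here *Il12rb1* was the 1 higher gene (16.7%, beside 8.03% of all tested genes). In edgeR 0 were lower, with 3 lower at an unadjusted p under 0.05, 2 in DESeq2 and 1 in limma-voom. Scaled by library size alone edgeR gave 1 lower. It gave 2 lower with no filter on low counts, and 2 with at least 10 counts in every library. Without scrambled-labelled replicates 2 and 3 and *Pgam*-labelled replicate 3, left out singly, 1, 2 and 1 were lower. As given for *Il12rb1*, 0 were higher in edgeR without scrambled-labelled replicates 1 or 2 or *Pgam*-labelled replicates 1 or 2, with 1 higher at an unadjusted p in each, and 1 higher in DESeq2 and limma-voom with all libraries.

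Lists of other helper lineages stand beside these, and the difference between lists was not tested. Of 10 Th2 genes 6 (60%) were higher and 1 (10%), *Maf*, was lower (log2 fold change -0.61, edgeR adjusted p = 0.00779), with a median log2 fold change of 1.0. Among all tested genes 8.03% were higher and 9.15% lower. The type 2 cytokine genes *Il5* and *Il4* were higher (log2 fold change 4.37 and 2.72, edgeR adjusted p = 0.000401 and 0.000953), and *Il5* shares 23.8% of its stretches with *Gm12214*, which had 0 counts. *Il5* had 9, 8 and 9 counts, then 247, 151 and 105. It passed the filter only through the *Pgam*-labelled libraries, so its fold change is imprecise. With at least 10 counts required in every library *Il5* was not tested, and 5 of 9 tested Th2 genes were higher. *Il13* was higher too (log2 fold change 3.77, edgeR adjusted p = 0.0131), but not without scrambled-labelled replicate 1 (0.0603) or 2 (0.0569), in a range of 5.66e-08 to 0.0603. *Il9*, another cytokine gene, was higher (log2 fold change 2.37, edgeR adjusted p = 0.022), but not without scrambled-labelled replicate 1 (0.0816), *Pgam*-labelled replicates 1 and 2 (0.068 and 0.0821) or the filter on low counts (0.101), in a range of 0.00155 to 0.101. Without scrambled-labelled replicate 1, 3 Th2 genes were higher.

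Of 9 tested Th17 genes 3 (33.3%) were higher and 2 (22.2%) lower, beside 8.03% and 9.15% of all tested genes. The median over the Th17 genes was 0.38 on the log2 scale. *Il17a*, the Th17 cytokine gene, was higher (log2 fold change 2.02, edgeR adjusted p = 0.0073), and *Ccr6*, a chemokine receptor gene, was lower (log2 fold change -1.2, edgeR adjusted p = 0.000395). *Batf*, a transcription factor gene (log2 fold change 0.75, edgeR adjusted p = 0.0108), and *Il1r1*, which encodes a receptor for IL-1 (log2 fold change 1.79, edgeR adjusted p = 0.0325), were higher, and *Rora*, a nuclear receptor gene (log2 fold change -0.64, edgeR adjusted p = 0.00713), was lower. Without *Pgam*-labelled replicate 2, *Batf* (edgeR adjusted p = 0.0569, range 2.43e-09 to 0.0569) and *Rora* (0.0506, range 1.75e-07 to 0.0506) missed the threshold. *Il1r1* missed it without scrambled-labelled replicates 1 and 2 (edgeR adjusted p = 0.115 and 0.0621) and *Pgam*-labelled replicates 1 and 2 (0.139 and 0.069), in a range of 0.00396 to 0.139. *Il1r1* had 5, 10 and 9 counts, then 39, 15 and 24. It passed the filter only through the *Pgam*-labelled libraries, so its fold change is imprecise. With at least 10 counts required in every library *Il1r1* was not tested, and of 8 tested Th17 genes 3 were higher and 3 lower. Of the list, 1 was higher and 1 lower without *Pgam*-labelled replicate 2, and 6 were higher without *Pgam*-labelled replicate 3.

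Of 10 Treg genes 3 (30%) were lower and 1 (10%) higher, beside 9.15% and 8.03% of all tested genes. The median over the Treg genes was -0.30 on the log2 scale. *Foxp3*, which encodes the Treg lineage factor, was lower (log2 fold change -1.41, edgeR adjusted p = 0.00567) and shares 26.4% of its stretches with other genes. *Ikzf2*, which encodes Helios (log2 fold change -0.57, edgeR adjusted p = 0.0484), and *Nrp1*, a surface receptor gene (log2 fold change -0.31, edgeR adjusted p = 0.0241), were lower, and *Il2ra*, the IL-2 receptor α chain gene (log2 fold change 0.52, edgeR adjusted p = 0.0185), was higher. *Ikzf2* missed the threshold without scrambled-labelled replicates 1 and 2 (edgeR adjusted p = 0.126 and 0.124) and *Pgam*-labelled replicates 1 and 2 (0.13 and 0.139), in a range of 0.0048 to 0.139. Without scrambled-labelled replicate 1 and *Pgam*-labelled replicates 1 and 2, the edgeR adjusted p was 0.105, 0.067 and 0.114 for *Nrp1* (range 0.0152 to 0.114) and 0.0725, 0.0639 and 0.0967 for *Il2ra* (range 1.43e-06 to 0.0967). Without any 1 of these 3 libraries, 1 Treg gene was lower and 0 higher in edgeR, with 1 higher at an unadjusted p in each, and 1 higher in DESeq2 and limma-voom with all libraries.

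**Figure D4:**
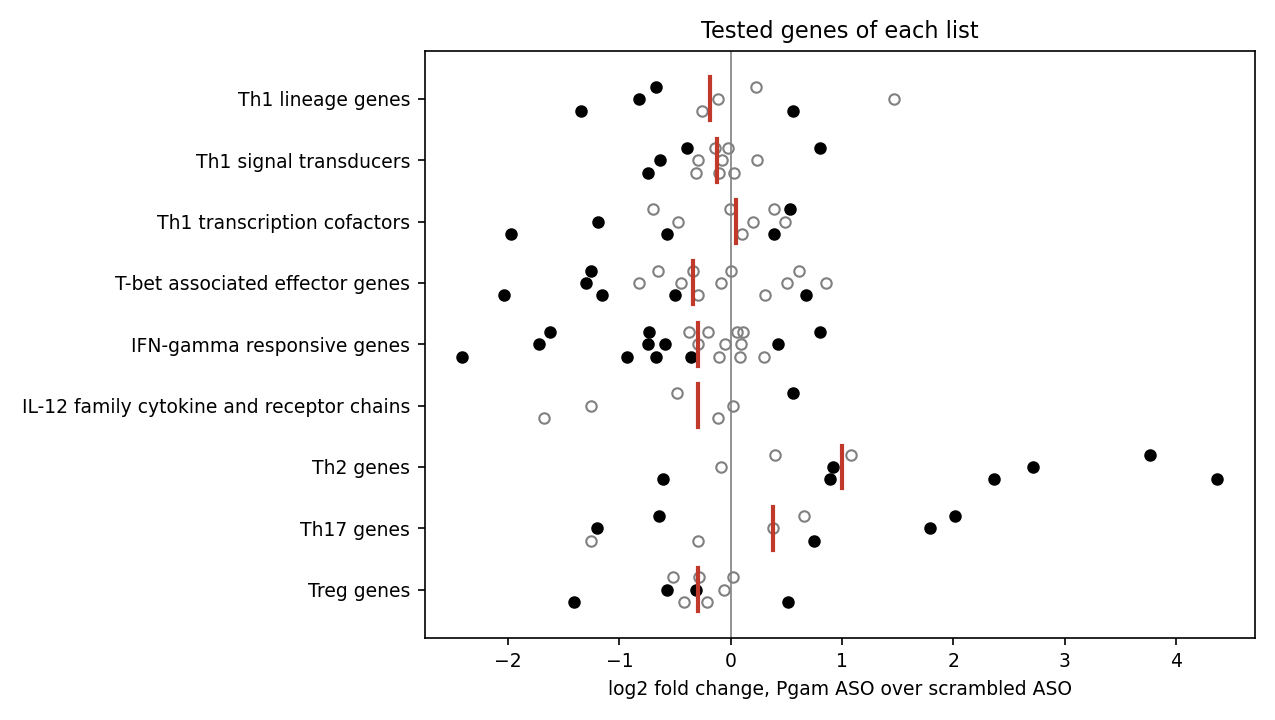
Log2 fold change of each tested gene, *Pgam*-labelled over scrambled-labelled libraries, for 9 lists with the Th1 lineage genes among them; filled points have an edgeR adjusted p under 0.05, open points do not, and red lines are list medians. The median is -0.19 for the Th1 lineage genes and 1.0 for the Th2 genes.

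Negative selection for naïve CD4 cells preceded the culture, but the cells were not sorted after it, and markers of other cell types were read in the same libraries. Natural killer cells make IFN-γ and express *Eomes*. Of 10 genes listed for natural killer and innate lymphoid cells, *Klrb1c*, *Klra4* and *Klra8* had 0 counts in all libraries and *Ncr1* 0 to 2 counts. Of the 3 tested, 0 passed in edgeR, DESeq2 and limma-voom, with 2 higher at an unadjusted edgeR p under 0.05, while 1 was higher without *Pgam*-labelled replicate 3 and 1 with no filter. All 3 had a log2 fold change above 0, with a median of 0.52. In 2 of them every *Pgam*-labelled library lay above every scrambled-labelled one, beside 19.6% of all tested genes. These were *Il2rb* and *Klrk1* (log2 fold change 0.83, edgeR adjusted p = 0.0968). *Tyrobp*, not tested, had 4, 5 and 2 counts, then 9, 8 and 5. The list summed to 856, 758 and 862 CPM, then 1044, 974 and 921 CPM, nearly all of it *Il2rb* (mean 898 CPM), which activated T cells also express. Of the CD8 T cell markers, *Cd8a* was higher (log2 fold change 1.12, edgeR adjusted p = 0.0286), but not without scrambled-labelled replicate 1 (0.0989) or *Pgam*-labelled replicate 1 (0.1), in a range of 0.000902 to 0.1. *Cd8b1*, the most abundant of the pair, did not pass (log2 fold change -0.20, edgeR adjusted p = 0.454), and their sum was 11.3, 13.5 and 10.8 CPM, then 14.6, 10.9 and 15.7 CPM.

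All 5 genes listed for NKT and γδ T cells were tested, and 2 (40%) were higher, beside 8.03% of all tested genes. The γδ receptor genes *Tcrg-C1* (log2 fold change 1.23, edgeR adjusted p = 0.0142) and *Tcrg-C2* (log2 fold change 1.69, edgeR adjusted p = 0.00229) were higher, 0 were lower at an adjusted or unadjusted p in edgeR, DESeq2 and limma-voom, and the list median was 1.05. They share 51% and 45.9% of their stretches with other genes, chiefly each other and *Tcrg-C3*, and counts summed over all of these gave 1.6 (edgeR adjusted p = 0.00135). *Tcrg-C1* missed the threshold without scrambled-labelled replicate 1 (edgeR adjusted p = 0.0535) or *Pgam*-labelled replicate 2 (0.0797), in a range of 0.00135 to 0.0797, which left 1 higher gene in each case. *Trdc*, the δ chain gene, did not pass (log2 fold change -0.40, edgeR adjusted p = 0.248), but every *Pgam*-labelled library lay below every scrambled-labelled one. In the list 1 gene separated downward in this way and 3 upward, beside 19.8% and 19.6% of all tested genes. The list summed to 10.4, 11.1 and 12.2 CPM, then 20.4, 24.5 and 21.8 CPM, with *Tcrg-C2* the most abundant and no marker at 0 in all libraries.

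Of 6 B cell genes 0 passed in edgeR and limma-voom, with 1 lower and 1 higher at an unadjusted edgeR p under 0.05, and 1 lower and 1 higher in DESeq2. Without scrambled-labelled replicate 3, and likewise without *Pgam*-labelled replicate 3, 1 was lower and 1 higher. With no filter on low counts 2 were lower and 1 higher in edgeR, and with at least 10 counts in every library 1 was higher. Of 10 myeloid and dendritic cell genes 5 were tested and 0 passed in edgeR, DESeq2 and limma-voom, with 2 lower at an unadjusted edgeR p. The B cell list summed to 14.2, 14.2 and 13.8 CPM, then 13.2, 12.3 and 9.47 CPM, with *Ebf1* the most abundant. The myeloid list summed to 16.8, 18.6 and 17.2 CPM, then 16.4, 12.8 and 13.3 CPM, with *Zbtb46* the most abundant. Neither list had a gene at 0 in all libraries.

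Of 10 CD4 T cell identity genes 3 were lower in edgeR and limma-voom and 4 in DESeq2, 8 were lower at an unadjusted p under 0.05 in each tool, and 0 were higher by either p in any of them. In 8 every *Pgam*-labelled library lay below all scrambled-labelled ones, beside 19.8% of all tested genes, and the list median was -0.29. The 3 lower genes in edgeR are 30% of the list, beside 9.15% of all tested genes. *Cd28*, the costimulatory receptor gene, passed in every alternative run (log2 fold change -0.66, edgeR adjusted p = 0.00183). *Cd5* (log2 fold change -0.49, edgeR adjusted p = 0.0193) missed the threshold without scrambled-labelled replicate 1 (0.0678) or *Pgam*-labelled replicate 2 (0.106), in a range of 4.79e-05 to 0.106. *Trac*, the constant part of the T cell receptor α chain (log2 fold change -0.30, edgeR adjusted p = 0.0416), missed it without scrambled-labelled replicates 1 and 2 (0.126 and 0.0898) and *Pgam*-labelled replicates 1 and 2 (0.153 and 0.14), in a range of 0.0244 to 0.153. The count of lower genes was 1 without scrambled-labelled replicate 1 or *Pgam*-labelled replicate 2, 7 without scrambled-labelled replicate 3 and 5 without *Pgam*-labelled replicate 3. The list summed to 3766, 3970.1 and 3564 CPM, then 3118, 3167 and 3258 CPM, with *Cd4* the most abundant. The part of these cell types in the Th1 results was not tested.

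**Figure D5:**
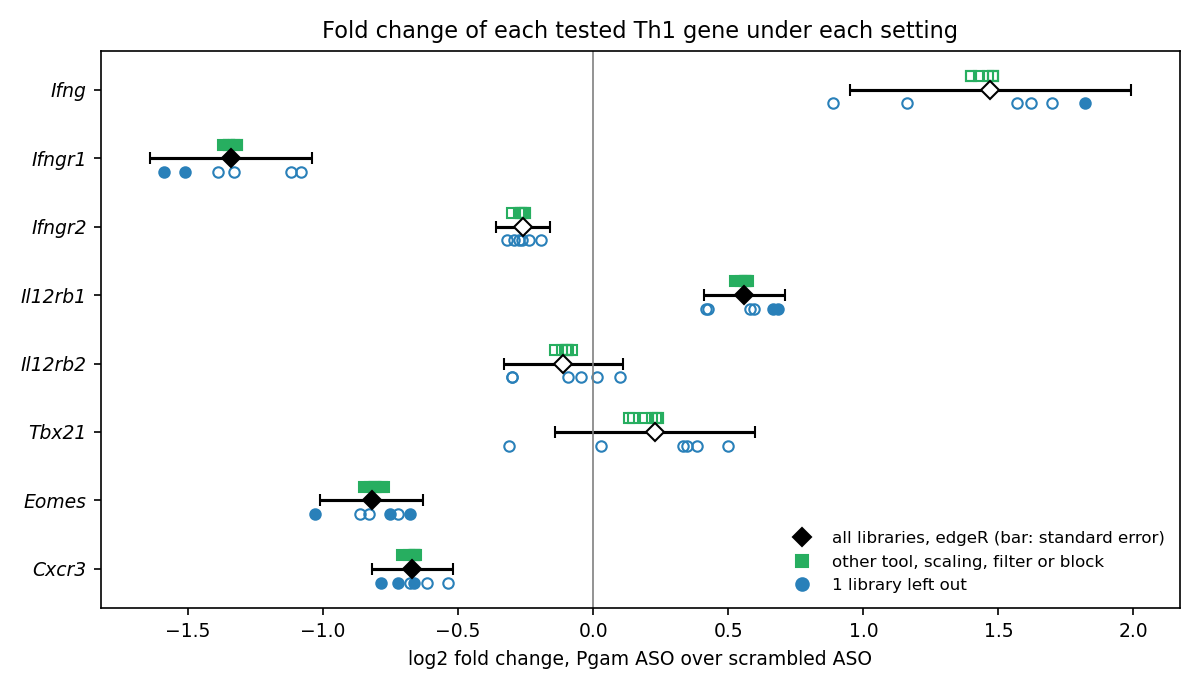
Log2 fold change of the 8 tested Th1 lineage genes with all libraries (diamonds, bars are standard errors), with another tool, scaling, filter or the replicate number as a block (squares), and with 1 library left out (circles); filled symbols have an adjusted p under 0.05. *Ifngr1*, *Eomes* and *Cxcr3* stay below 0 and *Ifng* and *Il12rb1* above 0 in the settings drawn, while *Tbx21* and *Il12rb2* cross 0 with 1 library left out.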

How the data were processed

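The deposited table holds estimated counts, which the authors made with Kallisto and gave as whole numbers for each Ensembl gene. The submitters' processing notes name GRCm38, while the Kallisto version, its annotation and the step from transcripts to genes are not given in the sources used here. The study calls the libraries biological replicates without saying whether these were separate mice or cultures, so p-values measure the spread between these libraries. Symbols, coordinates and transcript lengths came from GENCODE M21, which held 52073 of the 56748 gene IDs. The table may thus have been counted on another annotation, and lengths and shared stretches are those of M21. In R 4.3.3, rounded counts were tested with edgeR 4.0.16 (filterByExpr, TMM factors of 0.9721 to 1.029, robust quasi-likelihood fit) and adjusted by Benjamini-Hochberg over 14936 genes. The procedure was tested on simulated data from 1 random seed, which is too little to rank the tools. The limit on false calls was first set by hand for every tool, and DESeq2 exceeded it. After these values were seen, the limit was narrowed to edgeR alone and made stricter, and DESeq2 was kept as an alternative. Alternatives were DESeq2 1.42.0, limma-voom (limma 3.58.1), RLE factors, library size alone, no filter, a minimum of 10 counts per library, the replicate number as a block, and each library left out.

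The members and lists were chosen with earlier results of these data known. Named genes were the 10 members, *Pgam1*, *Pgam2*, at most 4 genes per list with the largest absolute log2 fold change at an adjusted p under 0.05, and the 5 genes most like *Tbx21* with a mean log2 CPM of at least 3. *Selplg*, *Fasl*, *Id2*, *Psmb8*, *Gbp6*, *Maf*, *Rora*, *Stat4*, *Cd8b1*, *Trdc*, *Nkg7*, *Gzmk*, *Klrk1*, *Tyrobp* and markers given for their abundance or absence were named after their values were seen. Shared stretches of 31 bases were found in GENCODE M21 transcripts on both strands. Not every gene of the lists is reported here by name.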

Additional observations from a re-analysis of the deposited data

How the results depend on the processing

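The count of lower Th1 genes was 3 with DESeq2, limma-voom, RLE factors, library size alone, a minimum of 10 counts and the replicate block, 2 with no filter, and 0 to 3 with 1 library left out. The count of higher Th1 genes was 0 with the replicate block, 1 in the other settings named, and 0 to 2 with 1 library left out. Alternatives for the other lists and the summed counts were added after the data were seen. Lower IFN-γ responsive genes ran from 4 to 9 and higher ones from 0 to 3 with 1 library left out, and 1 was higher with the replicate block. Lower T-bet associated genes ran from 1 to 5 and higher ones from 0 to 1 with 1 library left out, with 8 lower and 2 higher with no filter and 0 higher with the replicate block. Over all genes, the replicate block gave 755 lower and 480 higher, no filter gave 1832 higher, and 1 library left out gave 231 to 1773 lower and 160 to 1711 higher. With the replicate block, lower genes in edgeR went from 3 to 0 among the transcription factors and cofactors. There, 5 were lower at an unadjusted p under 0.05. Without the block, DESeq2 gave 4 lower in that list and limma-voom 3. With the block, lower genes went from 3 to 1 among the signal transducers and the Treg genes. Higher genes went from 2 to 1 among the transcription factors and cofactors. Same-numbered libraries deviated together with r from -0.237 to 0.0534. Differently numbered libraries of unlike label ran from -0.254 to 0.28, a range that holds these values. Such r therefore cannot tell whether the numbers pair the samples. Leaving out a library leaves fewer samples, and other causes were not tested. With 1 library left out, the differences in log2 ratio ran from -1.14 to -0.54 for *Eomes* to *Tbx21*, -0.73 to -0.56 for *Il12rb2* to *Il12rb1* and 0.88 to 1.3 for *Ifngr2* to *Ifngr1*; a two-sided exact sign-flip permutation over the replicate block gave p = 0.25 for each, the smallest it can give. The log2 fold change of *Tbx21* ran from -0.31 to 0.50 and that of *Il12rb2* from -0.30 to 0.10 with 1 library left out. Without *Pgam*-labelled replicate 2 the value for *Il12rb2* was 0.015. The cause of these moves was not tested. Counts summed with *Serbp1* gave 0.33, but *Serbp1* holds 80501 of these counts and *Il12rb2* 2599. That value describes *Serbp1*, which alone gave 0.34, and is no alternative value for *Il12rb2*. Of 34 other genes named by rule, none reversed in these settings, 24 passed with the replicate block, and 13 to 34 with 1 library left out. Depth limits *Hlx* and *Twist1*.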
